A study of Homo sapiens with 2 samples.

Results

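The genes described here encode 6 enzymes and cofactors that modify chromatin at enhancers: KMT2C, KMT2D, NCOA6, PAXIP1, EP300 and CREBBP. Their loci were examined in chromatin immunoprecipitation sequencing (ChIP-seq) of the established cell line KYSE510, which derives from an esophageal squamous cell carcinoma, with 1 library precipitated by an antibody against MLL3 and 1 by an antibody against GRHL2. MLL3 is the protein that KMT2C encodes, so that 1 of the 6 genes is the gene of the precipitated protein itself, and GRHL2 belongs to the Grainyhead-like transcription factors, which control epithelial genes. Both libraries came from formaldehyde-fixed, otherwise untreated cells of the same line, and each was called against an input control. Regions belonged to a gene when their summit, the base of highest signal, lay in the gene or within 25 kb on either side of it (hg19, gene ends known to 1 kb). Counts inside and outside a gene use these rounded ends, and a summit within 1 kb of a start cannot be told to lie before or after it. By this rule 105 of the 152864 GRHL2 regions and 0 of the 12150 MLL3 regions on chromosomes 1 to 22, X and Y belonged to the 6 genes. With 1 library per antibody no value has an error between replicates and no test between samples exists, and the deposited files give no read depth.

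KMT2C and its paralog KMT2D are histone methyltransferases that place monomethylation on histone H3 at enhancers. NCOA6, a nuclear receptor coactivator, and PAXIP1, a protein with BRCT repeats, are subunits of the complexes that KMT2C and KMT2D form. EP300 and its paralog CREBBP are acetyltransferases that acetylate histones at active enhancers and promoters. KMT2C, KMT2D, EP300 and CREBBP are recurrently mutated in squamous carcinomas.

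The gene starts are shown first, since each of the 6 genes had a GRHL2 region listed within 2 kb. Those at KMT2D and CREBBP had a q above 0.05. For KMT2D this refers to the start of the 36 kb span used here. Its RefSeq gene, the source of the promoter printed below, is 5.8 kb longer, and which end differs was not determined. If the start differs, that promoter may lie near a stronger listed region, 5.55 kb upstream of the start used here (fold 5.17, −log10 q 6.56). RefSeq promoters (GRCh38.p14) were at hand for 4 of the 6 genes, KMT2C, KMT2D, EP300 and CREBBP. The 250 bases before the start are printed 5′ to 3′ on the strand of the gene for both methyltransferases and for EP300, with GC boxes (GGGCGG, either strand, overlaps included) in capitals.
KMT2C: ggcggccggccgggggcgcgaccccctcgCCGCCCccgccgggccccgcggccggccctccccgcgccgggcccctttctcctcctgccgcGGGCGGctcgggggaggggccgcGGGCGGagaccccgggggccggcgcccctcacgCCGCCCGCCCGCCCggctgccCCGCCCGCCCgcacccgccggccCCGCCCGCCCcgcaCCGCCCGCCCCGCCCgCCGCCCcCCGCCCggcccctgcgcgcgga
KMT2D: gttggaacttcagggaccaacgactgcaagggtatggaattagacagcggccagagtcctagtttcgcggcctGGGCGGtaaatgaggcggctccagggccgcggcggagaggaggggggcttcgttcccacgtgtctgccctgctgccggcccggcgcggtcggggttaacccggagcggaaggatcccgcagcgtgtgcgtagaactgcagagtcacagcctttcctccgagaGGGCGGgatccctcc
EP300: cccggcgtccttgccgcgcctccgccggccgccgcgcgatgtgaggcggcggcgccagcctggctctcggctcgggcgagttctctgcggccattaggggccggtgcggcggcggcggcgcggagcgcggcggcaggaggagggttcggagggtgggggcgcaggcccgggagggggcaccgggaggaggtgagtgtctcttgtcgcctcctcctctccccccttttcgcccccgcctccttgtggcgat
The KMT2C promoter held 15 GC boxes and was 92% G and C, the KMT2D promoter held 2 at 65.6%, and the EP300 promoter held 0 at 76.8%. CREBBP had 2 entries, with 3 and 4 GC boxes at 72.4% and 84.0% G and C. Over 35097 RefSeq promoters of the same length, 42.6% held a GC box and the median content of G and C was 58.0%. The Grainyhead-like motif AACCGGTT and its looser form AACNGGTT (both strands, every AACCGGTT being also an AACNGGTT) were in 0 of the 5 promoter entries, and in 0.117% and 1.49% of all promoters. The AP-1 motif TGANTCA was likewise in 0 of the 5, and in 6.57% of all promoters. These are matches of letters in a fixed window of another genome build, and the windows were not placed on the hg19 regions.

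MLL3 regions were listed at none of the 6 genes, KMT2C included. Windows of the same length, laid end to end over the genome, held an MLL3 summit in 49.0% of cases for the length of the KMT2C window (351 kb), 36.4% for CREBBP (205 kb), 31.0% for NCOA6 (160 kb), 28.0% for EP300 (137 kb), 23.9% for PAXIP1 (110 kb) and 20.0% for KMT2D (86 kb). At the density of the whole MLL3 list, 4.06 regions per Mb, the windows with their 1049 kb would hold 4.26 regions. The 1 Mb on each side of the windows held 80 MLL3 regions in 12 Mb, or 6.67 per Mb. There were 27 around NCOA6, 16 around CREBBP, 15 around KMT2C, 9 around each of PAXIP1 and EP300, and 4 around KMT2D, whose flanks alone (2.0 per Mb) were below the density of the list. Absence from the list is not absence of the factor: the list ends at a −log10 q of 2.07 and its lowest fold enrichment, the signal at a summit as a ratio to its local background, was 2.66.

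**Figure D1:**
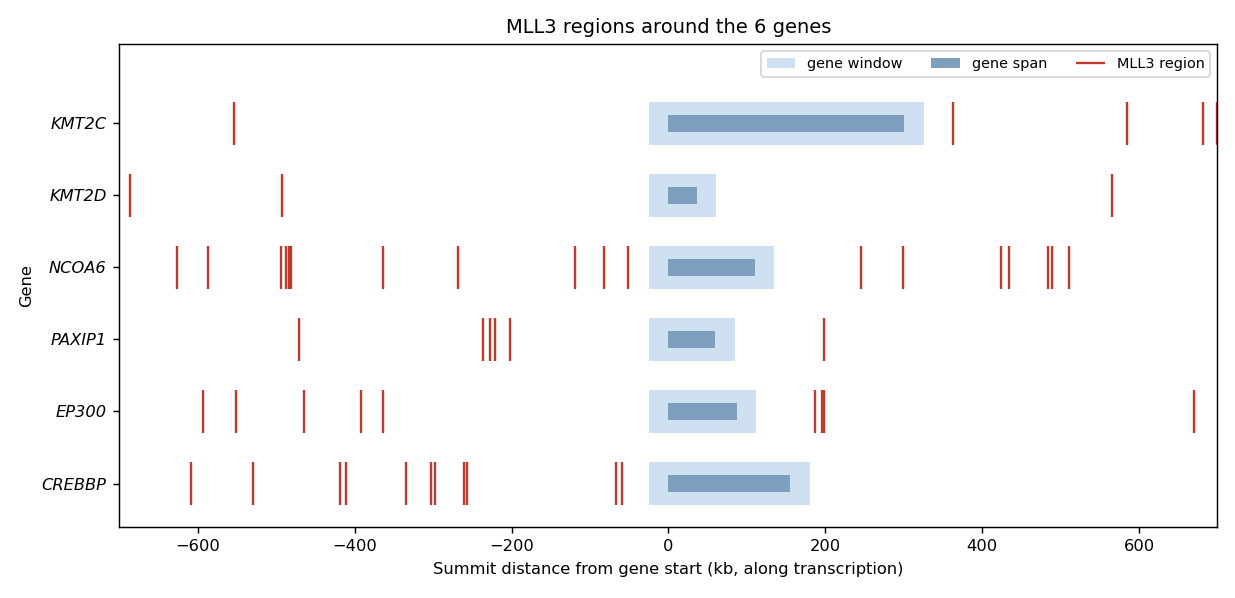
Positions of MLL3 summits (red lines) within 700 kb of the start of each gene, in kb along the direction of transcription; dark bars are the gene spans and light bars the windows with 25 kb on each side. All 6 windows are empty, and the line nearest to a gene start is 51.0 kb upstream of NCOA6.

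The nearest MLL3 region differed by gene in distance and strength. Measured from the edge of the window, which leaves out the length of the gene, it was 26.0 kb away for NCOA6, 34.4 kb for CREBBP, 37.3 kb for KMT2C, 75.2 kb for EP300, 114 kb for PAXIP1 and 467 kb for KMT2D. Distances from the gene start follow. Upstream of NCOA6 an MLL3 summit lay 51.0 kb from the start (chr20:33463726-33464084, fold 5.49, −log10 q 6.40), and a second lay 82.6 kb upstream (fold 6.41, −log10 q 8.98). Upstream of CREBBP 2 MLL3 summits lay 59.4 and 66.2 kb from the start (folds 4.73 and 5.47), on the side of its neighbour ADCY9. For EP300 the nearest summit was 187 kb from the start, beyond the end of the gene (fold 5.67), and for PAXIP1 it was 199 kb, also beyond the end (fold 5.13). KMT2C, the longest of the 6 genes at 301 kb, had its nearest MLL3 summit 363 kb from the start, past the end of the gene (chr7:151769591-151769879, fold 9.75, −log10 q 15.7). For KMT2D the nearest was 492 kb upstream, with the lowest fold of the 6 (3.95, −log10 q 3.14). Of these 6 nearest MLL3 regions 4 overlapped a GRHL2 region by at least 1 bp, those of PAXIP1 and CREBBP being the exceptions, and in the whole MLL3 list the share was 85.0%.

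GRHL2 regions were listed at each of the 6 genes, and 77 of the 105 lay at NCOA6 (41) and KMT2C (36). PAXIP1 had 10, KMT2D 9, CREBBP 6 and EP300 3. Most were weak. The GRHL2 list ends near an unadjusted p of 0.05, and 72 of the 105 regions (68.6%) had a q above 0.05, against 68.9% in the whole list. A −log10 q of at least 2, close to the limit of the MLL3 list, was reached by 13 (12.4%), against 19.7% in the whole list. Their median fold was 2.65 (quartiles 2.32 and 3.20, range 1.67 to 22.7), beside 2.77 (2.40 and 3.20) over all GRHL2 regions, and their median width was 358 bp beside 361 bp. The smallest width in the list, 265 bp, was found in 19 (18.1%), against 26.9% of the list. The q class between 0.05 and 0.01 held 20 of them (19.0%), against 11.5% of the list, and 12 of these 20 lay at KMT2C. Of the 20, 14 carried the same fold of 3.20 and −log10 q of 1.36, and 10 of those 14 were at KMT2C.

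With 0 MLL3 regions in the windows, none of the 105 GRHL2 regions overlapped one, which restates that absence and adds nothing to it. In the whole GRHL2 list 6.15% of regions overlapped an MLL3 region. In that list the overlap rose with strength, from 1.28% of regions with a q above 0.05 to 3.98% between a q of 0.05 and 0.01, 12.4% between a −log10 q of 2 and 5, 26.4% between 5 and 10, 34.3% between 10 and 100 and 76.2% from 100 upward. The 6 windows held 72, 20, 9, 3, 1 and 0 regions of these classes. At the share of each class in the whole list, 3.98 of the 105 would overlap an MLL3 region. Whether strength bears on the absence of overlap was not tested. The GRHL2 summit nearest to any MLL3 summit was 35.6 kb from it.

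**Figure D2:**
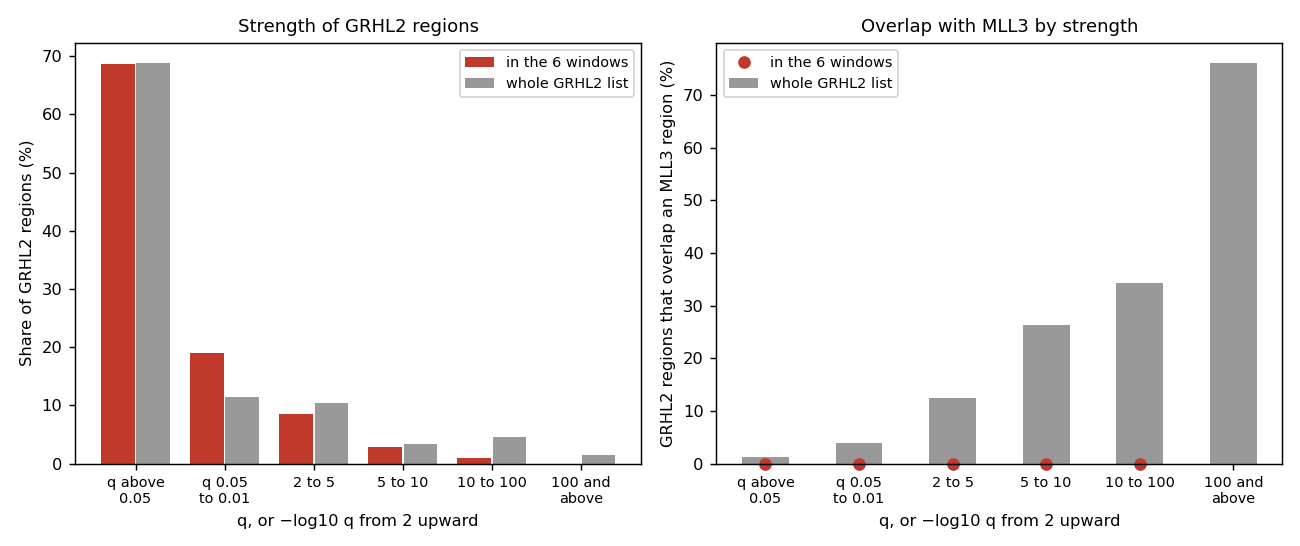
Left, share of GRHL2 regions (%) in each class of q or −log10 q, in the 6 windows (red) and in the whole list (grey); right, share in each class that overlaps an MLL3 region (%), with the 6 windows as red points at 0. Weak regions make up 68.6% of the windows and 68.9% of the list, and the windows hold 0 regions in the strongest class.

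At KMT2C, 30 of the 36 GRHL2 regions lay inside the gene, 4 upstream and 2 downstream. Of 3 equal parts of the gene, the part next to the start held 18, the middle part 6 and the last part 6. The highest were a pair in the part next to the start, 44.0 kb (chr7:152088751-152089417) and 94.4 kb (chr7:152038406-152038835) from the start, which shared a fold of 5.60 and a −log10 q of 6.27. A region of 1400 bp lay over the start (chr7:152132119-152133518, fold 4.00, −log10 q 2.79), with its summit within 1 kb of it. The fourth to reach a −log10 q of 2 lay 21.6 kb upstream (fold 3.67, −log10 q 2.33), on the side of XRCC2, a DNA repair gene. The other 32 had folds from 1.68 to 3.20, and 10 of them had the same fold of 3.20. In regions per Mb, the KMT2C window (103) stood beside 81.0 in the 1 Mb on each side and 77.5 on chromosome 7. Counting regions past a −log10 q of 2, the KMT2C window had 11.4 per Mb, its flanks 14.5 and the chromosome 11.4.

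At KMT2D, which is the shortest of the 6, the strong GRHL2 regions had their summits outside the gene span used here. The strongest of all 105 was 59.6 kb from the start, 23.6 kb beyond the gene end on the side of PRKAG1 (chr12:49388943-49389838, fold 22.7, −log10 q 79.6, rank 2577 of 152864 by fold). It was the only member with a fold above the median of the MLL3 list, 6.49. The lists come from different antibodies and end at different thresholds, so their folds do not rank the binding of GRHL2 against that of MLL3. A region of fold 5.17 (−log10 q 6.56) lay 5.55 kb upstream of the start. Another of fold 4.17 (−log10 q 3.26) lay 36.5 kb from the start, at the gene end. Its summit was within 1 kb of that end, so it cannot be told to lie inside or outside the gene. Past a −log10 q of 2 the KMT2D window had 34.9 regions per Mb, the most of the 6 windows, against 17.0 in the 1 Mb on each side and 11.7 on chromosome 12. This density rests on 3 regions in 86 kb, and NCOA6 came next with 5 regions, or 31.3 per Mb. Inside the gene there was 1 region, 1.74 kb from the start (fold 2.08, −log10 q 0.157). The start of KMT2D depends on the gene model: the RefSeq gene in GRCh38 is 5.8 kb longer than the span of 36 kb used here, and which end differs was not determined. If it is the start, the region 5.55 kb upstream and a weak one 4.75 kb upstream (fold 2.68) would lie close to it. Both could then lie inside the gene. The other 5 genes differed from their RefSeq lengths by less than 1 kb.

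Counting all GRHL2 regions, NCOA6 had the densest, 256 per Mb of its window, with a median spacing of 2.82 kb between summits and no gap above 13.2 kb. They covered 12.5% of the window, against 4.31% at KMT2C and 5.07% at KMT2D. The surroundings were dense as well, with 206 per Mb in the 1 Mb on each side, against 64.9 on chromosome 20. Windows of 160 kb along chromosome 20 held a median of 7 GRHL2 regions (quartiles 4 and 14, maximum 58), beside the 41 at NCOA6. Within the gene the 28 regions were spread over its length, 7, 11 and 10 in 3 equal parts from start to end. A −log10 q of at least 2 was reached by 5 regions of the NCOA6 window. These were at the start (chr20:33412979-33413669, fold 3.96, summit within 1 kb), in the gene at 22.1 kb (fold 4.38) and 101 kb (fold 3.49), and beyond its end at 115 kb (fold 4.12) and 121 kb (fold 3.70), on the side of TP53INP2, an autophagy gene. At this threshold the density was 31.3 per Mb in the NCOA6 window, below that of KMT2D, and 38.5 in its flanks.

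PAXIP1 had 10 GRHL2 regions, of which 5 were in the gene, and 0 reached a −log10 q of 2. They gathered at the start, where 3 summits lay within 2 kb. The highest of the 10 was 1058 bp wide and had its summit within 1 kb of the start (chr7:154794316-154795373, fold 3.20, −log10 q 1.36). Next came a region of fold 2.93, 75.1 kb from the start and beyond the gene end, and a region of fold 2.80, 11.5 kb inside the gene. The lowest fold was 1.92. The density was 90.9 per Mb in the window and 45.0 in the 1 Mb on each side.

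The acetyltransferase genes had the fewest GRHL2 regions. At EP300 there were 3, with 2 of them near the start, at less than 1 kb (chr22:41488303-41488863, fold 3.10, −log10 q 1.36) and 1.47 kb (fold 2.93, −log10 q 1.05) from it. The last lay 54.7 kb inside the gene with a fold of 2.00 and a −log10 q of 0. At CREBBP there were 6, and 2 of them lay within 1 kb of the start (fold 2.24 with a −log10 q of 0.429, and fold 1.70 with a −log10 q of 0). The only CREBBP region to reach a −log10 q of 2 lay 162 kb from the start, 7.36 kb past the end of the gene on the side of TRAP1, a mitochondrial chaperone gene (chr16:3767464-3767834, fold 3.63, −log10 q 2.69). The next by fold lay inside the gene, 40.6 kb (fold 2.57) and 123 kb (fold 2.41) from the start. Both windows had fewer regions per Mb than their surroundings. EP300 had 21.9 against 44.5 in the flanks and 53.9 on chromosome 22, and CREBBP had 29.3 against 68.0 in the flanks and 43.4 on chromosome 16. Their counts were within the quartiles of windows of the same length along the chromosome. Such windows held a median of 2 GRHL2 regions on chromosome 22 (quartiles 0 and 9), beside the 3 at EP300. On chromosome 16 the median was 7 (quartiles 2 and 13), beside the 6 at CREBBP. The longest stretch of a window without a GRHL2 summit was 82.2 kb at CREBBP and 57.3 kb at EP300.

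**Figure D3:**
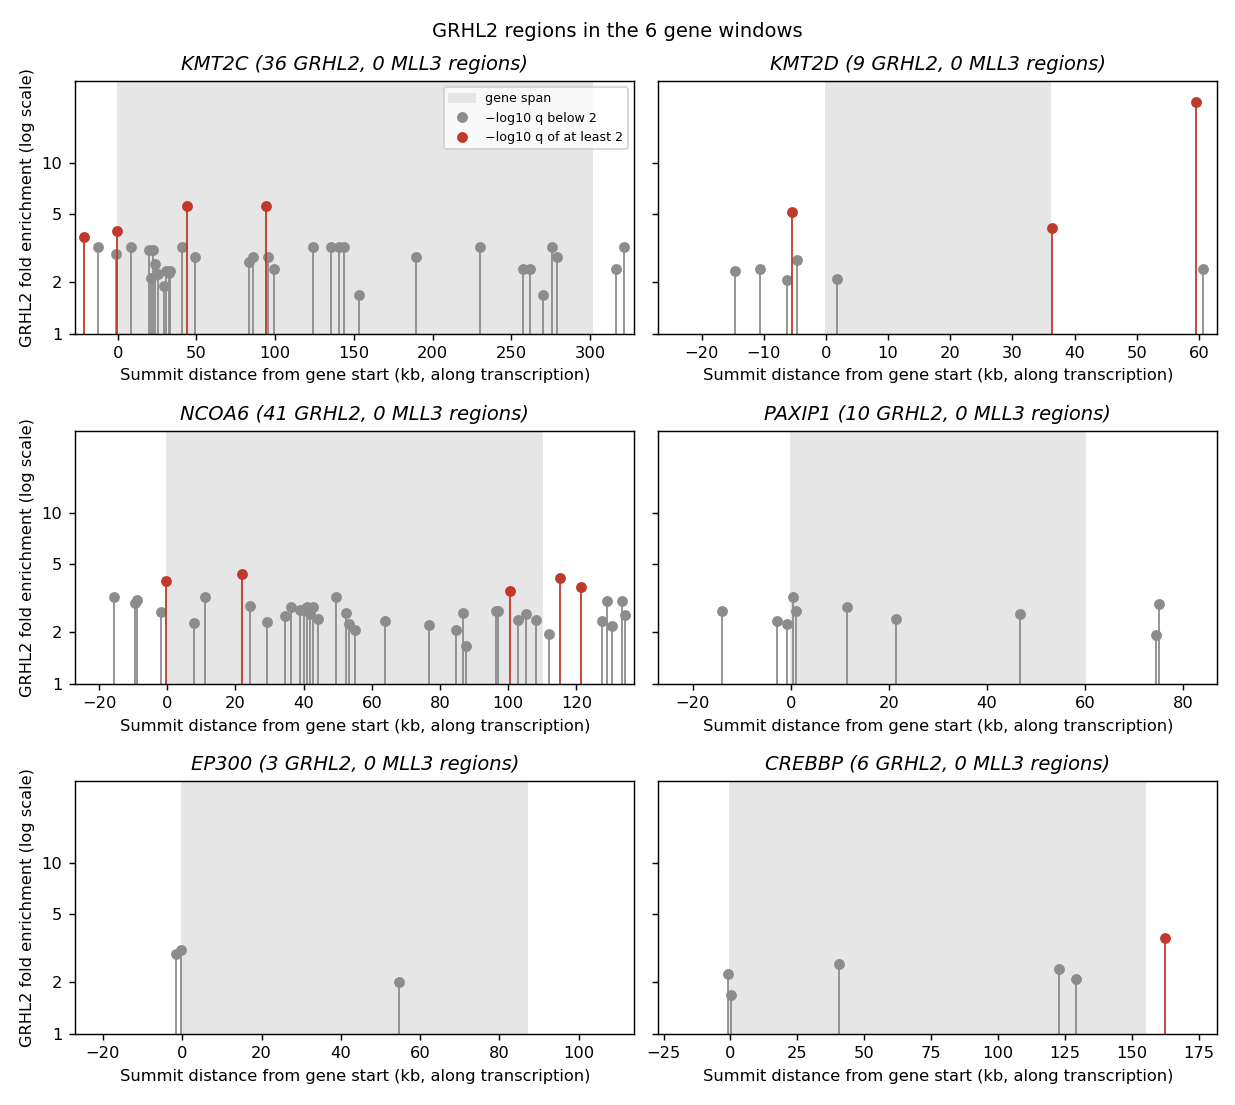
GRHL2 regions in the window of each gene: fold enrichment (log scale) against the distance of the summit from the gene start in kb along transcription, with the gene span shaded. Red points have a −log10 q of at least 2; the highest, fold 22.7, lies beyond the end of KMT2D, and the EP300 and PAXIP1 windows have 0 red points.

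**Figure D4:**
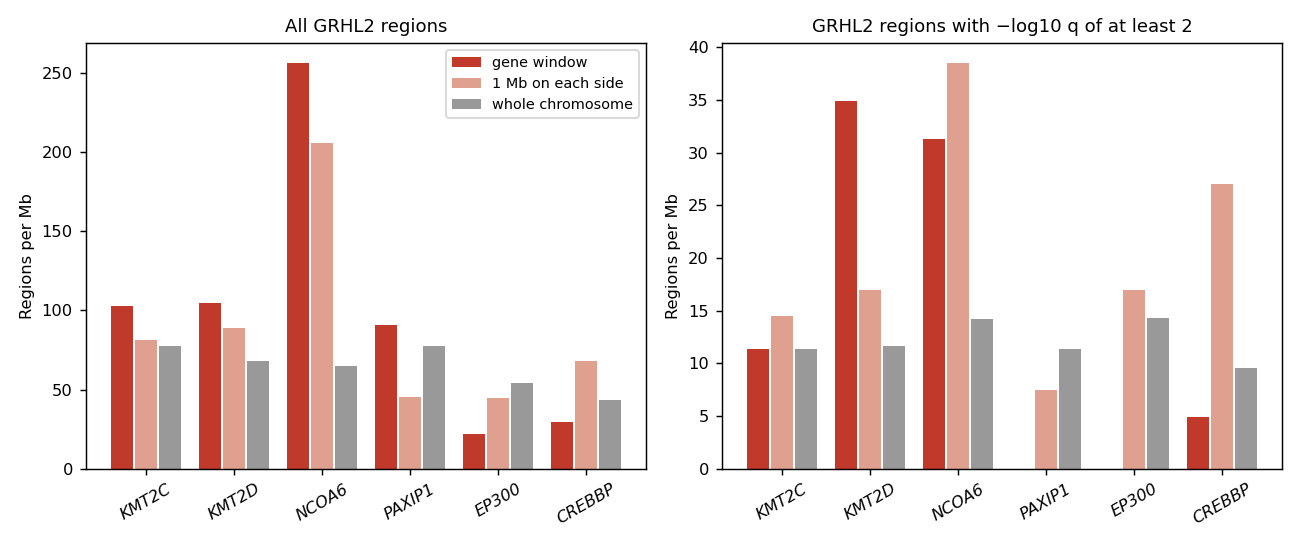
GRHL2 regions per Mb in each gene window, in the 1 Mb on each side and on the whole chromosome, for all regions (left) and for those with a −log10 q of at least 2 (right). NCOA6 is highest in the left plot at 256 per Mb; in the right plot its flanks (38.5) are above its window (31.3).

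What the 6 genes had in common was a listed GRHL2 region near the start, weak at most of them. Each had a GRHL2 summit within 2 kb of the start as given in whole kb, 12 in all, whereas 15.9% of windows of 4 kb laid over the genome held a GRHL2 summit. The 6 windows together held 100.1 GRHL2 regions per Mb, against 51.1 over the genome. The genome share is a low baseline for NCOA6, KMT2D, KMT2C and PAXIP1, whose windows held 90.9 to 256 per Mb. It is not low for CREBBP and EP300, whose windows held 29.3 and 21.9 per Mb. At NCOA6 the median spacing of summits, 2.82 kb, was itself below 4 kb. Within 1 kb this was so for 5 genes, KMT2D with the start used here being the exception, and 9.02% of windows of 2 kb held a summit. With a −log10 q of 2 or more, 2 of the 6 starts, those of KMT2C and NCOA6, had a region within 2 kb, against 3.60% of windows of 4 kb. At the starts of KMT2D, PAXIP1, EP300 and CREBBP the regions within 2 kb did not reach that limit. Those at KMT2D (−log10 q 0.157) and CREBBP (0.429 and 0) also had a q above 0.05. For KMT2D this holds for the shorter gene span: the region 5.55 kb upstream, which may be at the start of the longer RefSeq gene, had a −log10 q of 6.56. The 12 regions at the starts had a median fold of 2.79 (range 1.70 to 4.00) and a median width of 456 bp, and the 93 farther away had a median fold of 2.65 and a median width of 353 bp. Only 5 of the 105 regions were at least 1000 bp wide (4.76%, against 6.59% of the whole list), a width chosen after the values were seen. Those of KMT2C (1400 bp) and PAXIP1 (1058 bp) lay at the gene starts, and the other 3 (1003, 1287 and 1977 bp) lay beyond the end of NCOA6. The starts of other genes were not located in hg19 here, so the comparison is with windows of the genome and not with promoters. For the same reason the other subunits of the complexes, such as KDM6A, ASH2L, RBBP5 and WDR5, were not analysed here.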

How the data were processed

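ChIP-seq of KYSE510 cells with an MLL3 or a GRHL2 antibody was deposited as 1 narrowPeak list per antibody, called against input. The submitters' processing notes name BWA, Picard, MACS2, deepTools and hg19, without versions or settings. Fold enrichment (a ratio), −log10 p and −log10 q are as the authors deposited them. The deposited score was 10 times the −log10 q in 12195 of 12196 MLL3 lines and 10 times the −log10 p in all 153209 GRHL2 lines, so the lists end at different thresholds and their lengths are not comparable.

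Other contigs were dropped, and coordinates are 1-based. The gene spans were given in whole kb. Overlap meant at least 1 bp. Densities per Mb of a chromosome run from its first to its last region. Genome windows were laid end to end without regard to gaps, genes or mappability. Neighbouring genes came from the order of protein-coding genes in RefSeq GRCh38.p14, whose coordinates were not used. No test was run. The members and lists were chosen with earlier results of these data known. The text gives each gene's MLL3 regions, or the nearest, its 3 GRHL2 regions of highest fold, and the region nearest to the start. The scripts (Python 3.11.15, pandas 2.3.3, scipy 1.17.1) recovered planted overlaps in simulated lists. Alternatives were other flanks, thresholds and overlap rules.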

Additional observations from a re-analysis of the deposited data

How the results depend on the processing

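Of 32 alternative settings, 21 gave a value within 1.5 times the reported one, and 10 of these only narrowed a set that was already empty and could not change it. Of the settings of the MLL3 count that could have added a region, flanks of 50 kb and any base in the window left it at 0. With flanks of 100 kb there were 5, at 3 genes (KMT2C, NCOA6 and CREBBP), and 3 of the 5 overlapped a GRHL2 region. The 105 GRHL2 regions became 69 with no flank and 182 with flanks of 100 kb. They became 13 with a −log10 q limit of 2, 4 with a limit of 5 and 4 with a fold of at least 5, and 28 without KMT2C and NCOA6, a setting chosen after seeing the data. Their median fold, 2.65, was 4.12 with the −log10 q limit of 2 and 2.47 without those 2 genes. Their density, 100.1 per Mb, was 92.1 with no flank and 12.4 with the −log10 q limit of 2, beside 51.1 and 10.1 over the genome without and with that limit. The density of 100.1 per Mb was not common to the 6 windows. By gene it was 256 at NCOA6, 105 at KMT2D, 103 at KMT2C, 90.9 at PAXIP1, 29.3 at CREBBP and 21.9 at EP300. With 0 MLL3 regions in the windows, the settings of their overlap with stricter GRHL2 lists and of their summit distance gave no value. How far read depth limits either list is unknown. No paired analysis was possible because there was a single library for each antibody.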

Other observations

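Many weak regions carried identical values. A fold of 3.20 with a −log10 q of 1.36 occurred in 14 of the 105 (13.3%) and in 6.38% of the whole GRHL2 list, and 10 of the 14 were at KMT2C. The next most frequent folds, 2.80 and 2.40, occurred in 9 and 8 of the 105 (8.57% and 7.62%), and each in 13.0% of the list.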
